A study of Mus musculus with 6 samples.

Results

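The 8 genes for the constant parts of the mouse immunoglobulin heavy chain, *Ighm*, *Ighd*, *Ighg3*, *Ighg1*, *Ighg2b*, *Ighg2c*, *Ighe* and *Igha*, were taken by symbol from a table of 46983 genes, and all 8 were found. They were measured by bulk RNA-seq in 6 libraries of splenic B cells, 3 labelled WT and 3 labelled HIF-1a knockout (*Hif1a* KO). Both groups had been kept for 3 days with 5 μg/ml of LPS and 10 ng/ml each of BAFF, IL-5 and TGF-β, a mixture that drives switching to IgA, so a culture without these signals was not analysed here. *Hif1a* encodes the oxygen-regulated subunit of the transcription factor HIF-1. The study's methods describe KO mice with 2 floxed *Hif1a* alleles and Cre under *Mb1* (*Cd79a*), active in the B lineage, on a C57BL/6 background. WT mice were littermates with either 2 floxed alleles and no Cre or Cre and 1 floxed allele, and which of these each WT library came from is not labelled. The methods describe sorting of CD21int CD23+ follicular B cells before such cultures. Age and sex were not given in the sources used here, and nothing in the labels ties the 3 samples of a group to separate mice or cultures, so p-values measure only the spread between these samples.

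The heavy chain constant genes give an antibody its class. A naive B cell joins its rearranged variable exon to *Ighm* and, by alternative splicing of the same long transcript, to *Ighd*, so that it carries IgM and IgD. In class switch recombination the repetitive switch regions before *Ighm* and before a downstream gene are cut and joined, and the DNA between them is lost. Each downstream gene is first transcribed from its own promoter as a germline transcript, which does not code for an antibody chain but holds the same constant exons. TGF-β is the classical inducer of germline transcripts of *Igha* and acts also on *Ighg2b*, while LPS alone favours *Ighg3* and *Ighg2b*. Reads on constant exons come from germline and from switched transcripts alike, and from the membrane and the secreted form of each chain. These could not be told apart in 1 value per gene, nor, in bulk samples, could fewer cells of a class be told from less RNA per cell.

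The 8 genes lie on the minus strand of chromosome 12 in the mm10 build, transcribed in the order in which they are named above. *Ighm* spans chr12:113418558-113422730, and *Igha*, the last gene, spans chr12:113254830-113260236. *Ighd* begins 2233 bases after *Ighm*, whereas 45371 bases separate *Ighd* from *Ighg3*. Each gene has 2 annotated transcripts, and the longer one carries additional exons for the membrane anchor. The first coding exon of each gene encodes the CH1 domain, which follows the variable domain. Its first 60 bases are given here for all 8 genes, from the GENCODE vM21 transcripts, because they show how far the genes differ at the point where a read can tell one class from another. They are written 5′ to 3′ on the coding strand, and capitals mark the bases that are identical at the same position in all 4 IgG genes.
Ighm: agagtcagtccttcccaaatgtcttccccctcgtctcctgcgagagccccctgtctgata
Ighd: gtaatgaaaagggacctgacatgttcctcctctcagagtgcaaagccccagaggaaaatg
Ighg3: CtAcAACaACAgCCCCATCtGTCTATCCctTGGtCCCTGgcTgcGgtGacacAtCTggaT
Ighg1: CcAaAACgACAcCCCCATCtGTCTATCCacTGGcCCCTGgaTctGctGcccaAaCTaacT
Ighg2b: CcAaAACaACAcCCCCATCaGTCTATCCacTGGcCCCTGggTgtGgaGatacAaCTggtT
Ighg2c: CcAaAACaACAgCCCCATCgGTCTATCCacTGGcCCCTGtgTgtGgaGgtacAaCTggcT
Ighe: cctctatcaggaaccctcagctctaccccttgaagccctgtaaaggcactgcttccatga
Igha: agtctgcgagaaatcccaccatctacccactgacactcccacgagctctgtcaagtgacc
Of these 60 positions, 38 were identical in the 4 IgG genes, and over the whole exon of 291 bases 203 were. Pairs of IgG genes were 78.4% to 88.3% identical there. *Ighm*, *Ighd*, *Ighe* and *Igha* start with other sequences.

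Near-identical stretches bear on how far the IgG values can be trusted, since a read that lies wholly inside one fits both genes. The longest stretch shared by any pair was 88 bases, in exon 5 of *Ighg3* (chr12:113358080-113358167) and of *Ighg2b* (chr12:113304919-113305006), an exon of the membrane form. *Ighg2b* and *Ighg2c* shared 78 bases in exon 3 (chr12:113306869-113306946 and chr12:113287869-113287946), which both forms hold. Both sequences are given 5′ to 3′ on the coding strand, to show stretches in which 2 classes read alike.
Ighg3 and Ighg2b, exon 5: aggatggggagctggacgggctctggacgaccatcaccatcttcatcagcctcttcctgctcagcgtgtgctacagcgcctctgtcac
Ighg2b and Ighg2c, exon 3: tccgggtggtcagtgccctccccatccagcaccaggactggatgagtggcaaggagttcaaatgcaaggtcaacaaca
Of all 50-base windows in the transcripts of a gene, 5.49% of those of *Ighg2c*, 4.15% of *Ighg2b*, 1.58% of *Ighg3* and 0.393% of *Ighg1* recurred in another constant gene. None of the windows of *Ighm*, *Ighd*, *Ighe* or *Igha* did. How the counting treated reads with several alignments is not given in the sources used here, so low values of *Ighg2c* in particular are uncertain.

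Depth recovered from the values was 25.0 to 37.2 M reads per library (M, 1e6). In a principal component analysis of all tested genes, the first component held 54.7% of the variance and did not separate the groups. The library labelled WT replicate 1 scored 15.7 on it, among the KO libraries at 7.10 to 19.5 and far from WT replicates 2 and 3 at -26.2 and -25.9. Neutrophil markers such as *S100a9* were detected in WT replicate 1 with a summed FPKM of 43.4 over 10 genes, against 0 to 0.528 in the other libraries. Calls that change without this library are given beside the values. *Hif1a* itself was at 36.5, 49.8 and 45.8 FPKM in WT and 46.5, 45.6 and 52.8 FPKM in KO. By this value *Hif1a* was not lower in KO. Reads outside a deleted exon can still count for a floxed gene, and reads per exon were not examined. This sum over the whole gene therefore checks no label. B cell markers were high in every library, with *Pax5* at 428 to 607 FPKM, and *Fcer2a*, which encodes CD23, at 37.0 to 88.0 FPKM.

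FPKM (fragments per kilobase of gene and per M reads counted) sets genes of different length on 1 scale, so the levels of the constant genes can be ordered. *Ighm*, the constant part of IgM, stood far above the rest. It was at 9073, 6416 and 5741 FPKM in WT replicates 1 to 3 and at 7806, 7283 and 9310 FPKM in KO, the mean over all 6 libraries being 7605 FPKM. *Ighg2b* came next with a mean of 409 FPKM, followed by *Ighg3* at 199 FPKM and *Ighd* at 102 FPKM. *Igha*, the class that the culture was meant to induce, had a mean of 54.8 FPKM. *Ighg1*, the class favoured by IL-4, which was not added, was at 12.5 FPKM. *Ighg2c*, the C57BL/6 counterpart of *Ighg2a* and a class linked to interferon-γ, was at 0.963 FPKM. *Ighe*, the IgE gene, was at 0.0827 FPKM on 2 to 6 reads per library, and was too low to test.

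This order held in 6 of 6 libraries, and the ranges of no 2 neighbours overlapped. The closest pair was *Ighd*, whose lowest value was 77.4 FPKM, and *Igha*, whose highest was 74.5 FPKM. The order of *Ighg3* and *Ighd* depends on the length by which the authors divided. For 5 of the 8 genes that length equals the mean of both annotated transcripts, but for *Ighg3* it is 1082 bases, the length of its shorter transcript alone, against a mean of 1748 bases. With the mean length for every gene, *Ighg3* would be above *Ighd* in 5 of 6 libraries and their ranges would overlap. No other neighbours changed places or overlapped. Differences between libraries of the same gene do not depend on this length.

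**Figure D1:**
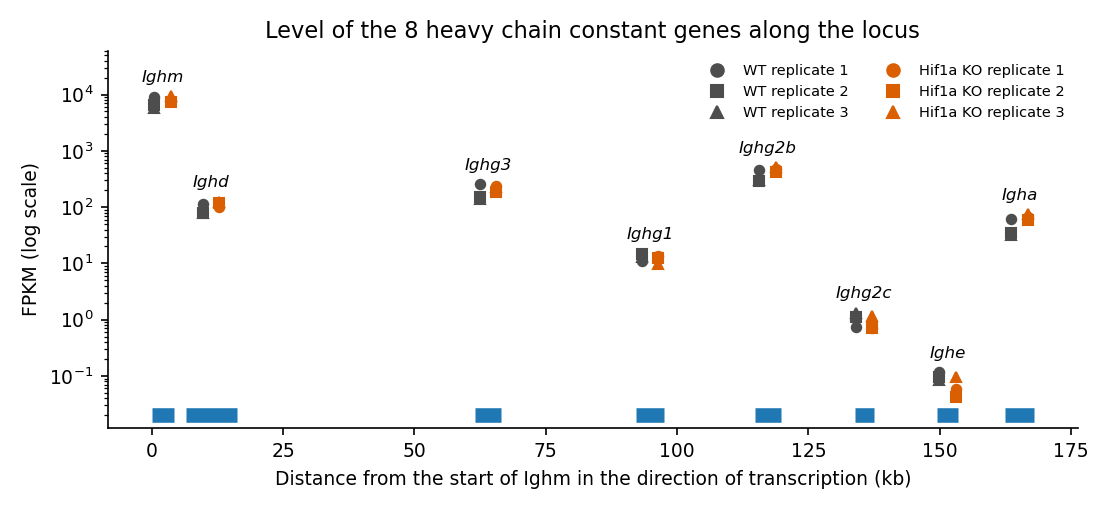
FPKM of each constant gene on a log scale (points, grey for WT and orange for *Hif1a* KO, shapes for replicates 1 to 3) against the distance in kb from the start of *Ighm*, with blue bars for the genes. *Ighm* lies above every other gene, *Igha* at the far end lies between 32.3 and 74.5 FPKM, and *Ighe* next to it lies below 0.12 FPKM.

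The comparison of KO with WT asks whether loss of HIF-1α in B cells went with other levels of constant region RNA under conditions for IgA switching. No gene was called at a Benjamini-Hochberg adjusted p under 0.05 in limma on log2(FPKM + 1), 0% of 13312 genes tested, and so none of the 7 constant genes tested. Before adjustment, 929 genes had a p under 0.05, and the smallest adjusted p was 0.321. *Igha* had the largest difference of the 7 and was the only one with an unadjusted p under 0.05. By complete separation of the groups, 4.06% of the genes tested had all KO values above all WT values and 10.1% were separated in either direction. None of the 7 constant genes was. For *Igha*, *Ighg2b*, *Ighg3*, *Ighd* and *Ighm*, only WT replicate 1 reached into the KO values or beyond them.

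*Igha*, the constant part of IgA, was at 62.2, 34.6 and 32.3 FPKM in WT and at 66.9, 58.0 and 74.5 FPKM in KO. WT replicates 2 and 3 were below every other library, and WT replicate 1 lay between KO replicates 2 and 1. The values rest on 1527 to 4212 reads per library. The means were 43.0 ± 16.6 FPKM in WT and 66.5 ± 8.27 FPKM in KO (SD, n = 3 each), a ratio of 1.54. On the log2(FPKM + 1) scale *Igha* was higher in KO by 0.67 ± 0.24 (SE), with a 95% interval of 0.09 to 1.25 before adjustment. Its limma p was 0.0284 unadjusted and 0.626 adjusted. Over all alternatives its adjusted p ranged from 0.0083 to 1. The lowest came without WT replicate 1, where the difference was 0.96 ± 0.11 (SE) and passed the threshold.

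*Ighg2b*, the IgG class that TGF-β also induces, had a similar order of libraries. It was at 465, 292 and 299 FPKM in WT and at 470, 413 and 517 FPKM in KO. Again WT replicates 2 and 3 were lowest, and WT replicate 1 was just below KO replicate 1. The difference was 0.43 ± 0.19 (SE) in log2(FPKM + 1), with an interval of -0.01 to 0.88 (limma adjusted p = 0.626, 0.0181 to 1 over the alternatives). *Ighg3*, the class typical of responses to LPS, was at 258, 149 and 139 FPKM in WT and at 234, 186 and 229 FPKM in KO. Its highest library was WT replicate 1. The difference was 0.30 ± 0.23 (SE), with an interval of -0.26 to 0.86 (limma adjusted p = 0.678, 0.0325 to 1 over the alternatives).

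Among the 2 genes of the unswitched cell, *Ighd* was at 115, 78.5 and 77.4 FPKM in WT and at 102, 116 and 126 FPKM in KO. The difference of *Ighd* was 0.36 ± 0.16 (SE), with an interval of -0.03 to 0.75 (limma adjusted p = 0.626, 0.0249 to 1 over the alternatives). *Ighm* differed by 0.22 ± 0.19 (SE), with an interval of -0.23 to 0.67 (limma adjusted p = 0.695, 0.102 to 1 over the alternatives). For both, WT replicates 2 and 3 were the lowest libraries, as they were for *Igha*, *Ighg2b* and *Ighg3*.

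The 2 low IgG classes did not share this order. *Ighg1* was at 11.02, 14.9 and 13.2 FPKM in WT and at 13.5, 12.7 and 9.69 FPKM in KO, with the lowest value in KO replicate 3 and the next in WT replicate 1. Its difference was -0.12 ± 0.15 (SE), with an interval of -0.47 to 0.24 (limma adjusted p = 0.781), and without KO replicate 3 it was 0.01. *Ighg2c* was at 0.740, 1.14 and 1.33 FPKM in WT and at 0.722, 0.701 and 1.15 FPKM in KO, on 21 to 41 reads per library. Its difference was -0.15 ± 0.16 (SE), with an interval of -0.54 to 0.23 (limma adjusted p = 0.744). *Ighe* counted 6, 4 and 3 reads in WT and 2, 2 and 4 reads in KO, too few to show a difference at this depth.

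**Figure D2:**
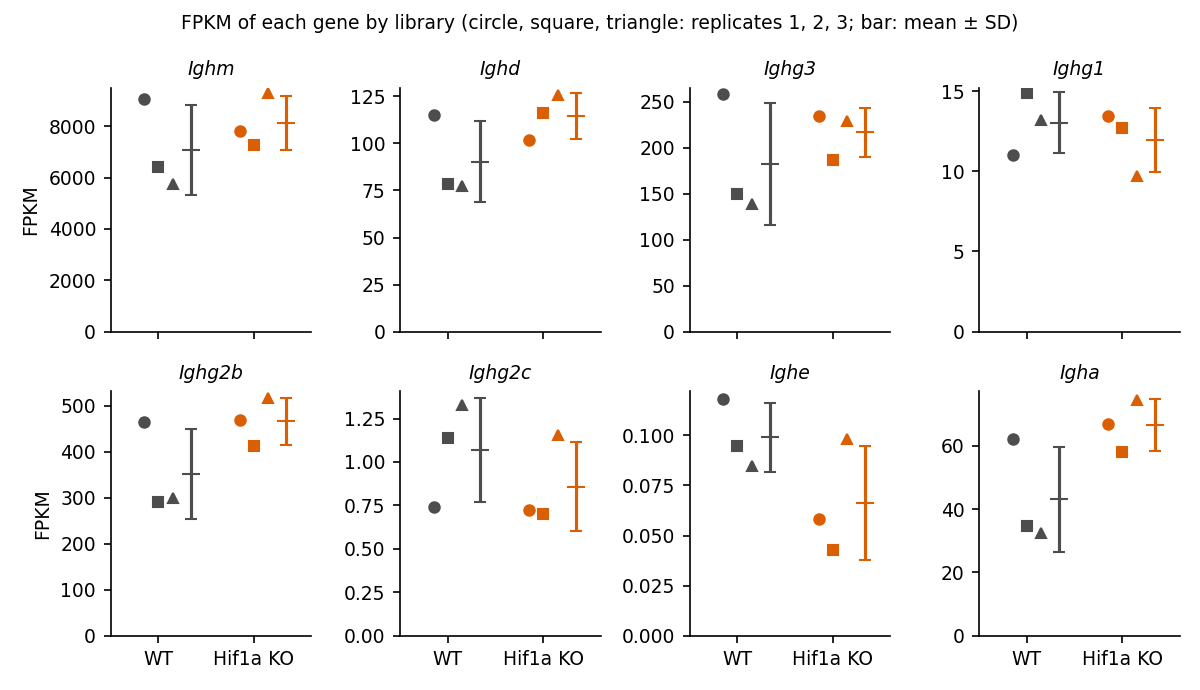
FPKM of the 8 constant genes in each library (linear axes from 0, circle, square and triangle for replicates 1, 2 and 3, bars for mean ± SD, n = 3). For *Igha*, *Ighg2b*, *Ighg3*, *Ighd* and *Ighm*, WT replicates 2 and 3 are the lowest of the 6 libraries and WT replicate 1 lies among the KO values or above them.

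Without WT replicate 1, limma called 1251 genes at an adjusted p under 0.05. Of these, 485 were higher in KO, 3.64% of the genes tested, and the others were lower. WT replicate 1 was the WT library that lay among the KO libraries on the first component. Leaving it out therefore widens the difference of genes that follow this component, so calls without it, in any paragraph, are no separate evidence for a gene. Of the 7 constant genes, 4 were called higher in KO in this fit, with the remaining WT arm of 2 libraries. These were *Igha* at 0.96, *Ighg2b* at 0.65, *Ighg3* at 0.58 and *Ighd* at 0.54 in log2(FPKM + 1), with adjusted p of 0.0083, 0.0181, 0.0325 and 0.0249. *Ighm* at 0.41 (adjusted p = 0.102), *Ighg1* at -0.23 (adjusted p = 0.343) and *Ighg2c* at -0.27 (adjusted p = 0.283) did not pass. Leaving out any other library called none of them.

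**Figure D3:**
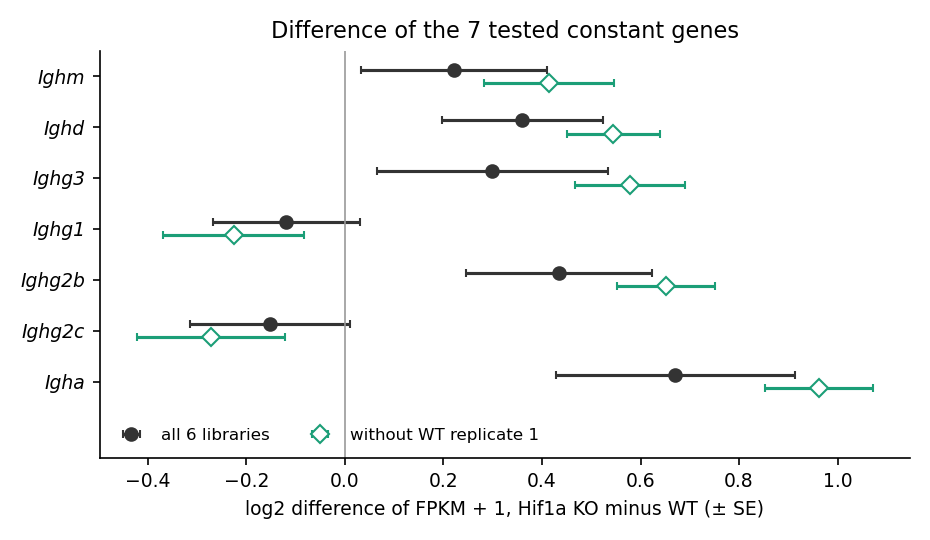
Difference between KO and WT in log2(FPKM + 1) for the 7 constant genes tested (points with SE bars, black for all 6 libraries, open green for the fit without WT replicate 1). Every difference lies farther from 0 without that library, and *Igha* lies farthest, at 0.67 with and 0.96 without it.

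Shares of the summed FPKM of the 8 genes set each gene against a sum that is mostly *Ighm*. They remove changes in proportion to that sum, and a gene that varies more than *Ighm* keeps part of its variation. The sum itself was 0.863% to 1.32% of the FPKM of all genes in WT and 1.10% to 1.35% in KO. *Ighm* held 90.9%, 91.8% and 91.1% of it in WT and 89.8%, 90.2% and 90.7% in KO, so that every KO library was below every WT library. *Igha* held 0.623%, 0.496% and 0.513% in WT and 0.770%, 0.718% and 0.726% in KO. Here WT replicate 1 was highest within WT but below all 3 KO libraries. The mean share of *Igha* was 0.544 ± 0.0689% in WT and 0.738 ± 0.0278% in KO (SD, n = 3 each, exact permutation test, two-sided p = 0.1). That is the smallest p that 3 against 3 libraries allow, so no share could pass 0.05, and 8 shares were compared.

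*Ighg2b* was the other gene of higher share in KO without overlap. It held 4.66%, 4.18% and 4.74% in WT and 5.41%, 5.12% and 5.03% in KO (exact permutation p = 0.1). The share of *Ighg3*, 2.13% to 2.58% in WT and 2.23% to 2.69% in KO, overlapped (exact permutation p = 0.5), as did those of *Ighd*, *Ighg1* and *Ighg2c*. The share of *Ighe* was lower in every KO library, but it rests on 2 to 6 reads. The 6 genes downstream of *Ighd* together held 7.99%, 7.04% and 7.69% in WT and 9.03%, 8.31% and 8.10% in KO (exact permutation p = 0.1). Among these 6 genes alone, *Igha* held 7.17 ± 0.575% in WT and 8.71 ± 0.228% in KO (SD, n = 3 each, exact permutation p = 0.1), again without overlap. How often other genes separate against the sum of these 6 was not computed. Shares depend on each other, since they add up to 100%.

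**Figure D4:**
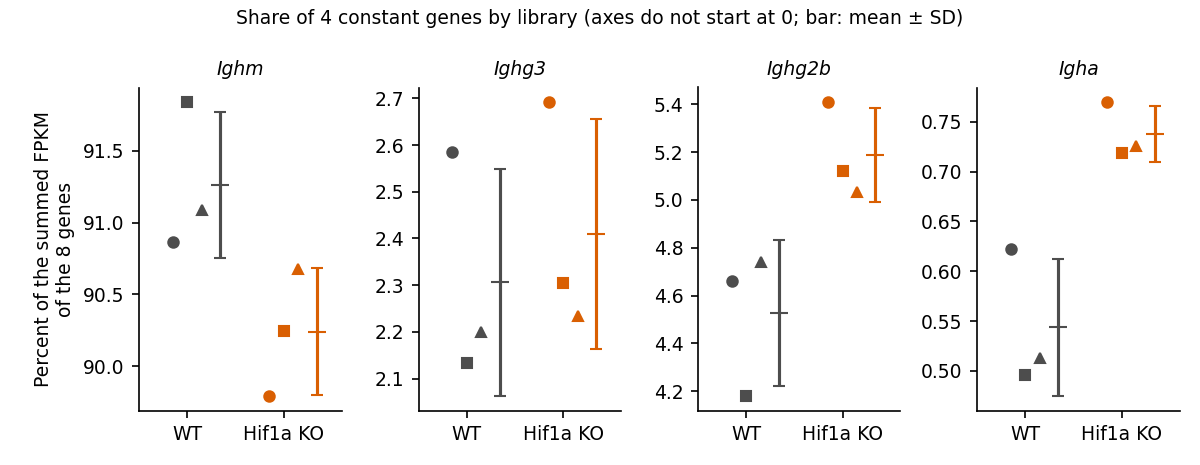
Share of *Ighm*, *Ighg3*, *Ighg2b* and *Igha* in the summed FPKM of the 8 constant genes, in percent, by library (circle, square and triangle for replicates 1, 2 and 3, bars for mean ± SD, n = 3, axes not from 0). KO libraries are all below WT for *Ighm*, all above WT for *Ighg2b* and *Igha*, and mixed with WT for *Ighg3*.

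Since *Ighm* holds most of the sum, ratios to *Ighm* nearly repeat the shares, in a form that can be set against all genes. Per 1000 FPKM of *Ighm* there were 6.85, 5.40 and 5.63 FPKM of *Igha* in WT and 8.57, 7.96 and 8.002 FPKM in KO. The log2 ratio was higher in KO by 0.46, a factor of 1.38 (exact permutation p = 0.1, the smallest possible). *Ighg2b* was at 51.3, 45.5 and 52.1 FPKM per 1000 FPKM of *Ighm* in WT and at 60.2, 56.8 and 55.5 FPKM in KO. The KO libraries were above the WT libraries for both genes, as they were for 1.25% of all genes tested when divided by *Ighm*. *Ighm* itself differed by 0.22 in log2(FPKM + 1), beside a median of -0.03 over all genes tested. Dividing by it therefore lowers most genes in KO relative to WT. Undivided, 4.06% of the genes tested had all KO values above all WT values, and neither *Igha* nor *Ighg2b* did. *Ighd*, *Ighg3*, *Ighg1* and *Ighg2c* overlapped between the groups in the ratio to *Ighm*, and *Ighe* was lower in every KO library on 2 to 6 reads. Relative to *Ighg3*, *Igha* was at 241, 232 and 233 FPKM per 1000 in WT and at 286, 312 and 325 in KO, without overlap. Relative to *Ighg2b* the values were 134, 119 and 108 in WT and 142, 140 and 144 in KO, also without overlap. Relative to *Ighd* they overlapped, at 541, 441 and 417 in WT and 657, 498 and 592 in KO (exact permutation p = 0.2). The share of all genes separated when divided by *Ighg3* or *Ighg2b* was not computed.

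Whether the groups overlapped depended on the gene in the denominator. *Igkc*, the constant gene of the κ light chain, followed *Ighm* closely, at 7148, 4766 and 4196 FPKM in WT and 5784, 5702 and 7024 FPKM in KO. The log2 ratio of *Igha* to *Igkc* was higher in KO by 0.45 without overlap (exact permutation p = 0.1). For this denominator too, the share of all genes separated was not computed. *Jchain* encodes the small chain that joins IgA dimers and IgM pentamers. It was at 182, 90.5 and 84.0 FPKM in WT and at 173, 142 and 220 FPKM in KO. *Igha* per 1000 FPKM of *Jchain* was at 342, 383 and 385 in WT and at 386, 408 and 338 in KO, which overlapped (exact permutation p = 0.8). *Cd79b* encodes a signalling chain of the B cell receptor, and the ratio of *Igha* to it overlapped too (exact permutation p = 0.2). *Cd79a*, its partner and the locus that carries the Cre, was at 1203, 739 and 779 FPKM in WT and at 498, 1074 and 611 FPKM in KO, so a ratio to it varies with that gene.

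The genes whose pattern over the 6 libraries was most like a constant gene were found by the root mean square difference of centred log2(FPKM + 1), among 9274 genes with a mean of at least 5 FPKM. For *Igha* they were *Zfp53* at 0.0810, *Mtss1* at 0.0846 and *Serinc5* at 0.0900, against a median of 0.485 over all candidates. *Ighg2b* was the constant gene most like *Igha*, at 0.145 and rank 47, and *Ighg1* was the least like it, at rank 8108. For *Ighm* the nearest were *Igkc* at 0.0407, *Hsd11b1* at 0.0417 and *Socs2* at 0.0419. *Igha* stood at rank 3150 from *Ighm*, and *Ighm* at rank 258 from *Igha*, at the same difference of 0.248. The measure also counts how widely a gene varies, and *Igha* had a spread of 0.457 against 0.251 for *Ighm*. All these values are descriptions over 6 libraries that share the position of WT replicate 1.

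**Figure D5:**
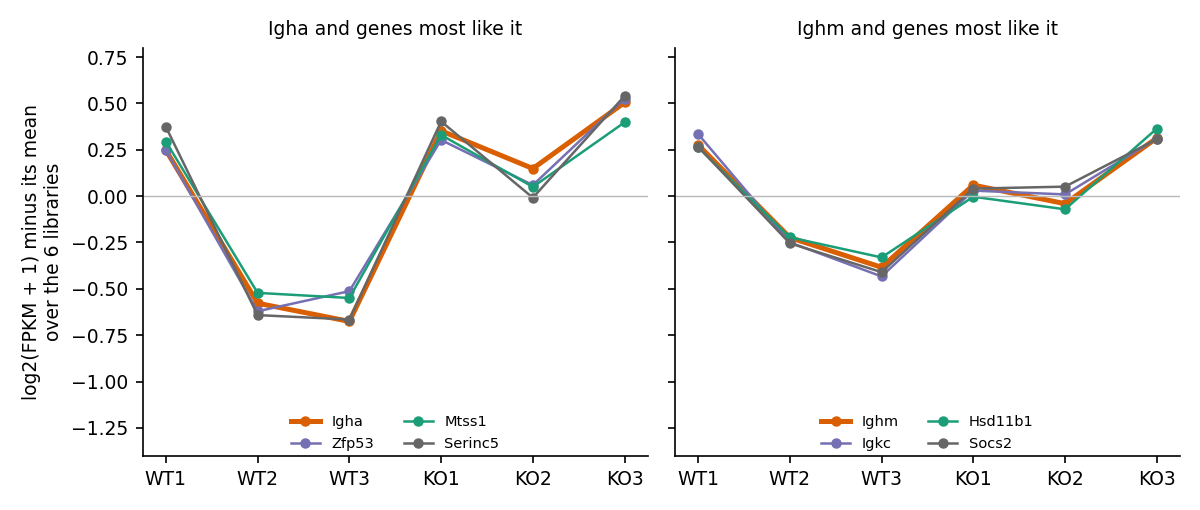
Centred log2(FPKM + 1) over the 6 libraries of *Igha* (left) and *Ighm* (right), each with the 3 genes most like it. In both panels WT replicates 2 and 3 lie below 0 and WT replicate 1 lies with the KO libraries.

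Among 39 genes of recombination and repair, all tested, none was called in limma. *Ung*, which removes uracil from DNA, was at 23.6 to 26.3 FPKM in WT and 24.9 to 25.4 FPKM in KO. The median difference of the list was -0.07, beside -0.03 over all genes tested. *Exo1*, an exonuclease of mismatch repair, was called lower in KO without WT replicate 1, at -0.49 (limma adjusted p = 0.0202). That fit called 1251 of all 13312 genes tested, 485 of them higher in KO and the others lower.

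Of 36 genes for signals and factors of germline transcription, 33 were tested and none was called or had an unadjusted p under 0.05 in limma. The TGF-β receptor gene *Tgfbr1* was at 36.4, 34.9 and 35.1 FPKM in WT and at 37.7, 38.4 and 39.7 FPKM in KO, a difference of 0.12 ± 0.06 (SE). *Tgfbr2* differed by 0.22 ± 0.12 (SE) with overlap. *Il5ra*, the receptor of the IL-5 in the medium, was at 7.504, 7.59 and 6.65 FPKM in WT and at 8.33, 7.94 and 8.34 FPKM in KO. *Smad3*, a mediator of TGF-β signals, had means of 9.40 FPKM in WT and 9.42 FPKM in KO, and *Smad7*, an inhibitor of the pathway, differed by 0.07 ± 0.11 (SE). *Runx3*, which acts with SMAD proteins on the *Igha* germline promoter, was at 136 to 149 FPKM in WT and 119 to 147 FPKM in KO. *Runx2*, a second RUNX factor, was at 0.240 to 0.481 FPKM and was not tested. The median of the list was 0.03. Without WT replicate 1, limma called 1251 of all 13312 genes tested, 485 of them higher in KO and the others lower. Of the list, 3 genes were called higher there, beside 3.64% of all genes tested, and 1 lower. Their limma adjusted p was 0.0044 to 0.0346. The transcription factor genes *Ets1* and *Spi1* differed by 0.67 and 0.31, *Csf2rb*, the receptor chain that IL-5 shares with other cytokines, by 0.40, and *Nfkb2*, of the alternative NF-κB pathway that BAFF uses, by -0.99.

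All 16 partners of immunoglobulin in assembly and folding were tested and none was called. Of these, 15 had positive differences, with a median of 0.22, beside 42.1% positive over all genes tested. WT replicate 1 was high for several of them, as it was for *Ighm*. *Jchain* differed by 0.65 ± 0.31 (SE, limma adjusted p = 0.626), *Cd79b* by 0.41 ± 0.20 (SE) and *Mzb1*, a chaperone of the endoplasmic reticulum, by 0.21 ± 0.21 (SE), while *Cd79a* differed by -0.36 ± 0.31 (SE). Without WT replicate 1, 3 of the 16 were called higher, beside 3.64% of all genes tested. These were *Jchain* at 1.002, *Txndc5* at 0.69 and *Cd79b* at 0.65 (limma adjusted p of 0.0255, 0.0447 and 0.0188).

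The 12 genes that set the choice of membrane, secreted or delta transcript were all tested and none was called. *Zfp318*, which is needed for the IgD transcript, had an unadjusted limma p of 0.0326. It was at 20.5, 14.7 and 16.4 FPKM in WT and at 22.8, 22.1 and 20.2 FPKM in KO. *Ell2*, which promotes the secreted form, differed by 0.29 ± 0.16 (SE), and *Hnrnpll* by 0.05 ± 0.14 (SE). The median of the list was -0.0036. *Zfp318* was called higher in KO without WT replicate 1, at 0.45 (limma adjusted p = 0.0288), and was the only gene of the list called.

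Marker lists of the cells in the cultures are given beside these values, and their part in the differences was not tested. Of 12 plasma cell genes 11 were tested, none was called and the median difference was 0.19. Their summed level was 1059 to 1621 FPKM in WT, highest in replicate 1, and 1163 to 2001 FPKM in KO. *Prdm1*, the master regulator of plasma cells, was at 40.0, 17.1 and 16.7 FPKM in WT and at 41.3, 29.2 and 55.9 FPKM in KO, so WT replicates 2 and 3 were lowest here too. Without WT replicate 1, *Prdm1* at 1.22 (limma adjusted p = 0.0369) and *Jchain* were called higher, 2 of the 11, beside 3.64% of all genes tested. *Xbp1*, which drives secretion, differed by 0.43 ± 0.32 (SE), *Irf4* by 0.17 ± 0.17 (SE) and *Sdc1*, the plasma cell surface marker CD138, by -0.14 ± 0.16 (SE). None of 12 B cell genes was called, with a median difference of 0.11 and sums of 6217 to 7394 FPKM in WT and 5974 to 7668 FPKM in KO. *Cd79b* and *Ebf1*, 2 of these 12, were called higher without WT replicate 1.

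Of the lists for other cells none had a called gene with all 6 libraries. Macrophage and monocyte genes summed to 80.0, 182 and 128 FPKM in WT and to 74.0 to 84.4 FPKM in KO. Most of the sum in KO was *Adgre1*, at 59.8, 91.1 and 81.1 FPKM in WT and at 55.5 to 69.7 FPKM in KO. *Lyz2* was at 6.18, 58.3 and 26.2 FPKM in WT and at 0.60 to 3.70 FPKM in KO. Of the 6 genes of this list that were tested, 5 had negative differences and 1, *Mrc1*, a positive one. Of these 14 genes 5 stayed under 1 FPKM in every library. WT replicates 2 and 3, the lowest in *Igha*, were the highest in this list. Dendritic cell genes summed to 94.98 to 119 FPKM in WT and 76.1 to 103 FPKM in KO. Most of this sum was *Ccr7*, at 77.5 to 102 FPKM in WT and 63.7 to 89.6 FPKM in KO. Erythroid genes were at 3.49, 16.5 and 13.6 FPKM in WT and 3.07 to 4.92 FPKM in KO. Of 12 T cell genes 9 stayed under 1 FPKM, and *Lck*, at 90.1 to 137 FPKM, made up most of their sum. The lists for NK and innate lymphoid cells and for basophils and mast cells stayed at or under 7.42 FPKM in sum. Stromal and endothelial genes summed to 76.7 to 98.5 FPKM, but 8 of these 9 genes stayed under 1 FPKM in every library. In the fit without WT replicate 1, 1251 of 13312 genes tested were called, 485 of them higher in KO and the others lower. *Igha* and 3 other constant genes were among those called higher. Of the macrophage list, *Lyz2* at -3.79 (limma adjusted p = 0.0135), *C1qa* at -1.43 and *Ms4a7* at -0.71 were called lower in KO. The globin genes *Hbb-bs* and *Hba-a1* were called lower there too, as were *Kit* of the mast cell list and *Zbtb46* of the dendritic cell list, whereas *Lck* was called higher.

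Genes annotated around the constant genes were looked at for the same pattern. The 5 genes between *Ighm* and *Igha* are pseudogenes, and 4 of them were too low to test. *Gm37944*, a constant region pseudogene on the plus strand, was at 0.714, 0.468 and 0.558 FPKM in WT and at 1.25, 0.492 and 0.566 FPKM in KO. Beyond *Igha*, the first protein-coding gene, *Tmem121*, stayed under 0.74 FPKM. *Tedc1* was at 22.2 to 23.7 FPKM in WT and 18.4 to 23.5 FPKM in KO. *Crip1* was at 68.1, 37.1 and 35.2 FPKM in WT and at 57.7, 73.6 and 60.1 FPKM in KO, with its 2 lowest values in WT replicates 2 and 3 as for *Igha*. It was called higher in KO without WT replicate 1, at 0.79 (limma adjusted p = 0.0150).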

How the data were processed

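RNA-seq of 6 libraries of mouse splenic B cells was used, 3 WT and 3 *Hif1a* KO, grouped by the sample labels. Per the study's methods, the authors aligned clean reads to mm10 with TopHat, counted them per gene with HTSeq and deposited FPKM values. The annotation release, strand option and treatment of multiply aligned reads are not given in the sources used here. Gene IDs were matched to GENCODE vM21 (GRCm38, mm10), which held 46488 of 46983. Because FPKM values of a gene are whole multiples of what 1 read is worth, depth, gene lengths and reads were recovered (tolerance 0.02 reads, 25.0 to 37.2 M reads, at least 99.89% of the denominator). At such depth *Igha* rests on 1527 to 4212 reads per library, and *Ighe* on 6 or fewer. Differences were tested in R 4.3.3 with limma 3.58.1 (mean-variance trend) on log2(FPKM + 1) for the 13312 genes whose FPKM averaged 0.5 or more, and adjusted by the Benjamini-Hochberg method over all of them. Shares and ratios were compared by two-sided exact permutation tests in scipy 1.17.1. Intervals are at 95%. Scripts were tested on simulated data. The genes named were the 8 constant genes, *Hif1a*, their neighbours, the 3 genes most like *Igha* and *Ighm*, and fixed genes from 4 pathway lists and 10 marker lists. Other genes of the marker lists, and listed genes called without WT replicate 1, were named after their values were seen. The members and lists were chosen with earlier results of these data known. Alternatives were other pseudocounts, filters, scalings, variance priors, a replicate block, voom on recovered reads, other denominators and leaving out each library. No pair of libraries was identical. Single-cell data were not analysed here. Results on 2 listed genes are not reported here.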

Additional observations from a re-analysis of the deposited data

How the results depend on the processing

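Calls over all genes depended on single libraries. Against 0 genes called with all 6 libraries, leaving out 1 library gave 0 to 1251, with 1251 without WT replicate 1, 1 without KO replicate 1 and 0 without any other. The differences of *Igha*, *Ighg2b*, *Ighg3* and *Ighd* passed the threshold without WT replicate 1 alone. Over the 6 fits that leave out a library, *Igha* ranged from 0.50 to 0.96 and *Ighm* from 0.08 to 0.41 in log2(FPKM + 1). *Ighg1* ranged from -0.23 to 0.014, turning sign without KO replicate 3. Leaving out KO replicate 1 turned the share of *Ighg3*, whose difference ranged from -0.0375 to 0.243 percentage points over the libraries left out. The share of *Ighm* was lower in KO by 1.02 percentage points among the 8 genes, but higher by 0.134 points as a share of all genes. Dividing by annotated transcript lengths, an alternative chosen after seeing the data, changed no direction of a share. The labels tie same-numbered samples by their number only, and the deviations of these samples correlated at -0.0987, 0.139 and -0.276. With 3 libraries per group, such correlations cannot show whether the samples were paired. With a replicate block limma called 0 genes, *Igha* differed by 0.67 (adjusted p = 0.78), and the shares of *Igha* and *Ighm* and the ratio of *Igha* to *Ighm* had exact p = 0.25, the smallest that 3 pairs allow. Depth limits *Ighg2c* and *Ighe*, and 1 value per gene cannot separate germline from switched transcripts.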
